A study of Mus musculus with 13 samples.

Results

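Enamel organs of mandibular incisors were compared here for 9 transcription factors that act in ameloblasts, the epithelial cells that lay down and mature enamel: Msx2, Dlx3, Sp6, Sp7, Runx1, Runx2, Satb1, Foxo1 and Tbx1. They were taken from the deposited table by mouse gene symbol, and each of the 9 matched 1 of its 48709 genes. The tissue came from mice at postnatal day 11. The Het group carried the G357W substitution in Tgfbr2, which encodes the type II receptor for TGF-beta ligands, on 1 allele and kept a wild-type copy on the other (5 libraries). The WT group were littermates with both alleles wild type (8 libraries). No other deletion, transgene or treatment is named for either group. A count per gene does not separate 2 alleles that differ by a substitution, so the counts do not check the genotype. Each library was taken as 1 mouse, although the labels do not state it, and the p-values measure the spread between these libraries, which may be technical. A library is named by its group and by the number in its column, such as Het 4-2. The part of that number before the hyphen (1, 4 or 5) is called the prefix below, and no label says what it stands for.

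Enamel forms in stages. Secretory ameloblasts release matrix proteins such as ameloblastin and amelogenin, and maturation ameloblasts remove that matrix with proteases and move ions while the mineral hardens. Several of the 9 factors have been tied to these stages by loss-of-function mice or inherited enamel disorders. Activated TGF-beta receptors phosphorylate Smad proteins, which act on DNA together with other factors, Runx proteins among them.

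Total counts over genes were 20266079 to 26122340 per library in Het and 18852382 to 26508410 in WT. The labels name dental epithelial cells, and all 8 listed epithelial identity genes, Krt5 and Epcam among them, were expressed. They summed to 1685 to 2355 CPM (counts scaled to normalized library size) in Het and 1821 to 2390 CPM in WT. Ambn, which encodes ameloblastin, had between 2983678 and 6450826 counts in each of the 13 libraries. Genes of other tissues were present as well. The 10 osteoblast and bone markers, Col1a1 among them, summed to 3102 to 7112 CPM in Het and 3802 to 8480 CPM in WT, and the 8 skeletal muscle markers to 12.9 to 64.3 CPM in Het and 10.8 to 140.4 CPM in WT. No listed marker of these 3 lists was at 0 in all libraries. Since these are bulk samples, fewer cells of a type and less RNA per cell cannot be told apart.

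The promoters of Runx1 and Runx2 are shown first because both hold copies of the core motif that Runx proteins themselves bind. The sequences are from RefSeq (GRCm38.p6), read 5′ to 3′ on the minus strand, which codes for both genes, from 250 bases before the annotated start to 50 bases after it. Of the 9 factors, 6 had such a window in the table. Capitals mark ACCACA, the reverse complement of the Runt core TGTGGT. Both orientations were searched. Motifs of homeodomain, GC-box, forkhead and T-box factors were searched for in the same windows. The homeodomain motif TAATTA, in 5.29% of all promoter windows, matched in the Msx2 window. The GC box CCGCCC, in 35.7% of all promoter windows, matched in a window each of Msx2, Satb1, Foxo1 and Tbx1. The forkhead and T-box motifs matched in none of the factors' windows. The Runx1 window is chr16:92826025-92826324 and the Runx2 window is chr17:44814578-44814877.
Runx1: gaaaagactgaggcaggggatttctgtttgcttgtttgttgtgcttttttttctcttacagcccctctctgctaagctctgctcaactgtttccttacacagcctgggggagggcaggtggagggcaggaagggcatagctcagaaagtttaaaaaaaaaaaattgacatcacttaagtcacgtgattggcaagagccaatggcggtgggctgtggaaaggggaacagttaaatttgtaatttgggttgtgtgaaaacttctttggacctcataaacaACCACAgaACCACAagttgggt
Runx2: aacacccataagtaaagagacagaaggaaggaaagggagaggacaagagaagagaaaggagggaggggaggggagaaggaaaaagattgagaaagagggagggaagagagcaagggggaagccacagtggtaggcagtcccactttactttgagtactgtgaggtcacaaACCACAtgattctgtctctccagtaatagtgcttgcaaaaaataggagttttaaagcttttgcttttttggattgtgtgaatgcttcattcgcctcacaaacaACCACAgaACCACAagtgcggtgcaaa
The Runx1 window held 2 matches and the Runx2 window 3, counted from 1 at the 5′ end. They began at bases 279 and 287 in Runx1 and at bases 171, 274 and 282 in Runx2. Among 32851 RefSeq promoter windows of the same length, 16.8% held at least 1 match, 1.81% at least 2 and 0.183% at least 3. The last 2 matches of each gene lie within a stretch of 22 bases that is the same in both windows and downstream of the annotated start at base 251.
shared stretch: aaacaACCACAgaACCACAagt
The longer motif at its centre, 2 Runt cores 2 bases apart, was searched for after these sequences had been seen.
paired core: ACCACAgaACCACA
It occurred in 4 of the 32851 windows, which cover 3 sites in the genome. Those sites are in the Runx1 window, in the Runx2 window and in a window of Runx3, the other member of the gene family. The fourth window, of Gm16225, overlaps that of Runx3 on the other strand and covers the same site. A second annotated Runx1 window (chr16:92697280-92697579) held no match to the single core. These matches are a description of the letters, and binding was not measured.

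Ranked by level per length, Dlx3 had the highest value of the 9 factors and Sp6 the lowest. The level here is CPM per kilobase of the union of a gene's annotated exons (GENCODE annotation of GRCm38), given as mean ± SD over all 13 libraries. Dlx3 averaged 69.2 ± 22.2 CPM per kilobase and Runx2 41.4 ± 7.38. Sp7 averaged 19.99 ± 5.15, Msx2 13.8 ± 2.04 and Runx1 13.8 ± 2.63 CPM per kilobase. Satb1 (8.53 ± 1.44), Foxo1 (6.63 ± 1.06) and Tbx1 (1.75 ± 0.378) followed, and Sp6 was at 0.0665 ± 0.0352 CPM per kilobase. Of the Sp6 exon bases, 86.7% overlap a gene on the other strand, as set out below, so its value may not measure its abundance.

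In that order, Dlx3 was above Runx2, Runx2 above Sp7 and Runx1 above Satb1 within each of the 13 libraries, although the ranges over libraries overlapped. Msx2 and Runx1 did not separate, with Msx2 the higher in 6 of 13 libraries. Sp7 was above Msx2, and Satb1 above Foxo1, in 12 of 13. The ranges of neighbours were apart only for Foxo1 over Tbx1 and Tbx1 over Sp6. The middle of the order depends on which length is used. Per kilobase of the longest coding transcript, Runx1 (28.2) and Satb1 (25.98) were above Sp7 (21.9) and Msx2 (18.5), because the exon unions of Satb1 (19027 bases) and Runx1 (12025 bases) are far longer than those transcripts (6243 and 5861 bases).

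**Figure D1:**
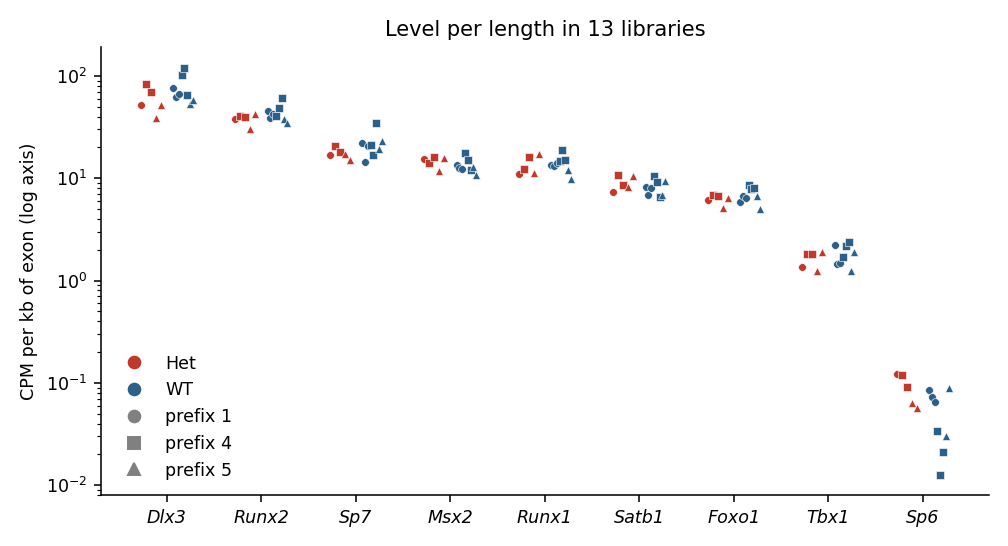
Level of each factor per kilobase of exon union (CPM per kilobase, log axis) in every library, with Het points left of WT points for each gene. Dlx3 and Runx2 lie at the top in both groups and Sp6 far below the other 8, and the Het and WT ranges of each gene overlap. The overlap is partial for Dlx3, with 3 Het libraries below every WT library, and for Sp6, with 3 Het libraries above every WT library.

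None of the 9 factors differed between Het and WT at an adjusted p under 0.05. Of the 9, 8 passed the filter on low counts and were tested in the fit over 16328 genes (edgeR quasi-likelihood test, Benjamini-Hochberg adjustment), and Sp6 did not pass it. At adjusted p under 0.05, 0 of the 8 were called, where 0.0857% of all genes tested were. At unadjusted p under 0.05, again 0 of the 8 were called, where 6.9% of all genes were. DESeq2 called 0 of the 8 (0.453% of all genes) and limma-voom also 0 (0.098% of all genes), adjusted. At unadjusted p under 0.05 both called 0 of the 8, where DESeq2 called 7.53% of all genes and limma-voom 6.96%. Dlx3 was the 1 of 8 at unadjusted p under 0.05 in limma-voom with sample weights, which called 8.72% of all genes so, and 0 of 8 passed adjusted (0.165% of all genes). The ranges of the groups were apart for 0 of the 8, where they were apart for 0.49% of all genes. Fitted log2 fold changes (Het over WT) of the 8 lay between -0.35 and 0.15, with 2 above 0 and 6 below. Their median was -0.15, beside a median of 0.00 for all genes, of which 50.9% were below 0.

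**Figure D2:**
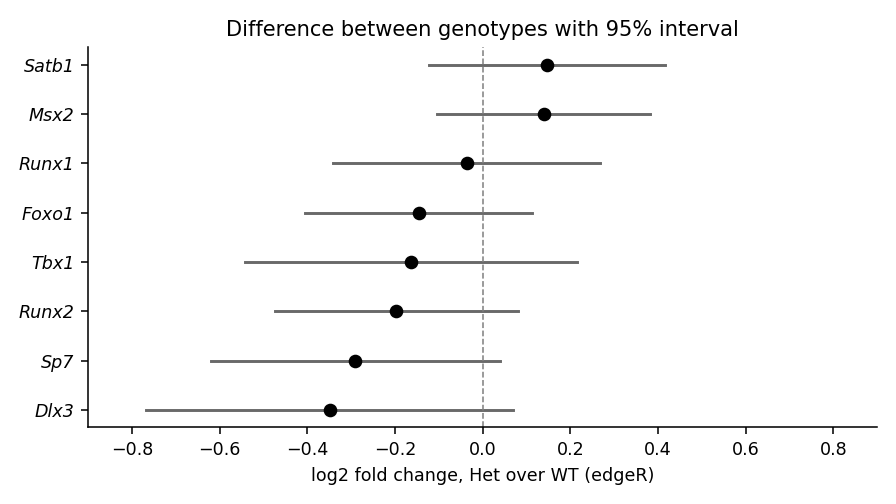
Fitted log2 fold change (Het over WT) of the 8 tested factors with the 95% interval. The interval of each of the 8 includes 0, and the estimates run from -0.35 for Dlx3 to 0.15 for Satb1.

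The homeobox genes come first. Msx2 (ENSMUSG00000021469, chr13:53466884-53473074, minus strand) encodes a homeodomain protein that mostly represses transcription, and mice without it have defective enamel. Its level was 50.9, 46.6, 52.4, 38.8 and 51.6 CPM in the Het libraries 1-2, 4-2, 4-5, 5-5 and 5-6, against 35.3 to 58.1 CPM with a median of 41.8 CPM in WT. Of the Het libraries 4 lay above the WT median, yet all 5 lay inside the WT range. Het over WT was 0.14 ± 0.12 on the log2 scale (SE; 95% interval -0.10 to 0.38; edgeR adjusted p = 0.835). It ran from 0.10 (without WT 5-3) to 0.21 (without Het 5-5) when 1 library was left out.

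Dlx3 (ENSMUSG00000001510, chr11:95120119-95125296, plus strand) encodes a homeodomain activator. Human mutations of it cause tricho-dento-osseous syndrome, in which enamel is thin and poorly mineralised. Its level was 136, 215, 183, 102 and 136 CPM in Het libraries 1-2, 4-2, 4-5, 5-5 and 5-6, against 137 to 313 CPM with a median of 171 CPM in WT. The 3 Het libraries with prefixes 1 and 5 were below every WT library, 2 WT libraries were above every Het library, and the ranges overlapped through the Het libraries with prefix 4. Dlx3 had the lowest estimate of the 8, which on the log2 scale was -0.35 ± 0.20 (SE; 95% interval -0.77 to 0.07; edgeR adjusted p = 0.762). That interval is a fold of 0.587 to 1.05. Without Het 4-2 the value was -0.50 and without WT 4-3 it was -0.22, neither with an adjusted p under 0.05. In the edgeR fit without Het 4-2, Dlx3 had an unadjusted p under 0.05, as did 1480 of 16532 genes.

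Dlx3 was also the one factor called between prefixes with all 13 libraries in the fit, a call that some omissions changed. In a fit of genotype and prefix, 1 of the 8 passed an adjusted p of 0.05 for the prefix, where 6.08% of all genes did, and nothing is read from a count of 1. Dlx3 lay at 168 to 313 CPM in the 5 libraries with prefix 4, at 136 to 200.4 CPM in the 4 with prefix 1 and at 102 to 150.0 CPM in the 4 with prefix 5. Prefix 5 was below prefix 4 in every library, and prefix 1 overlapped both. The log2 fold change was 0.49 ± 0.15 for prefix 4 over prefix 1 and -0.27 ± 0.16 for prefix 5 over prefix 1 (SE; edgeR adjusted p = 0.0158 for both terms together). The call was lost without WT 5-1 (edgeR adjusted p = 0.0545) and without Het 4-2, and 2 factors passed without Het 5-6, where Foxo1 had an edgeR adjusted p of 0.0445. Foxo1 in all 13 libraries had an edgeR adjusted p of 0.0757. With the prefix in the fit, the log2 fold change of Dlx3 in Het over WT was -0.33 ± 0.13 (SE; edgeR adjusted p = 0.438). In that fit Dlx3 was the 1 of 8 at unadjusted p under 0.05, which it was not without the prefix, where 9.82% of all genes were, and 0 of 8 passed adjusted (0.184% of all genes). Within prefixes 1, 4 and 5 the mean log2 CPM of Dlx3 in Het minus that in WT was -0.40, -0.28 and -0.28.

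Msx2 and Dlx3 have opposite actions on homeodomain sites, so their ratio within a library is given as a description with no test. The log2 ratio of Msx2 to Dlx3 CPM was -1.64 ± 0.36 in Het and -2.13 ± 0.27 in WT (SD, n = 5 and 8). It ran from -2.20 to -1.40 in Het and from -2.67 to -1.70 in WT, so the ranges overlapped. Within prefixes 1, 4 and 5 the difference was 0.68, 0.32 and 0.49. Of the other homeobox genes of this family, Dlx4 had 24.5 to 29.5 CPM in Het and 15.1 to 24.9 CPM in WT, ranges that overlap by a small margin. Its log2 fold change was 0.38 ± 0.11 (SE; edgeR adjusted p = 0.289). Dlx4 was the only one of 23 other tested factors at an unadjusted p under 0.05, where 6.9% of all genes were. Dlx1 was at 15.9 to 21.8 CPM in Het and 15.4 to 17.6 CPM in WT. Neither Dlx1 nor Dlx5 passed the test, with edgeR adjusted p of 0.805 and 0.816.

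**Figure D3:**
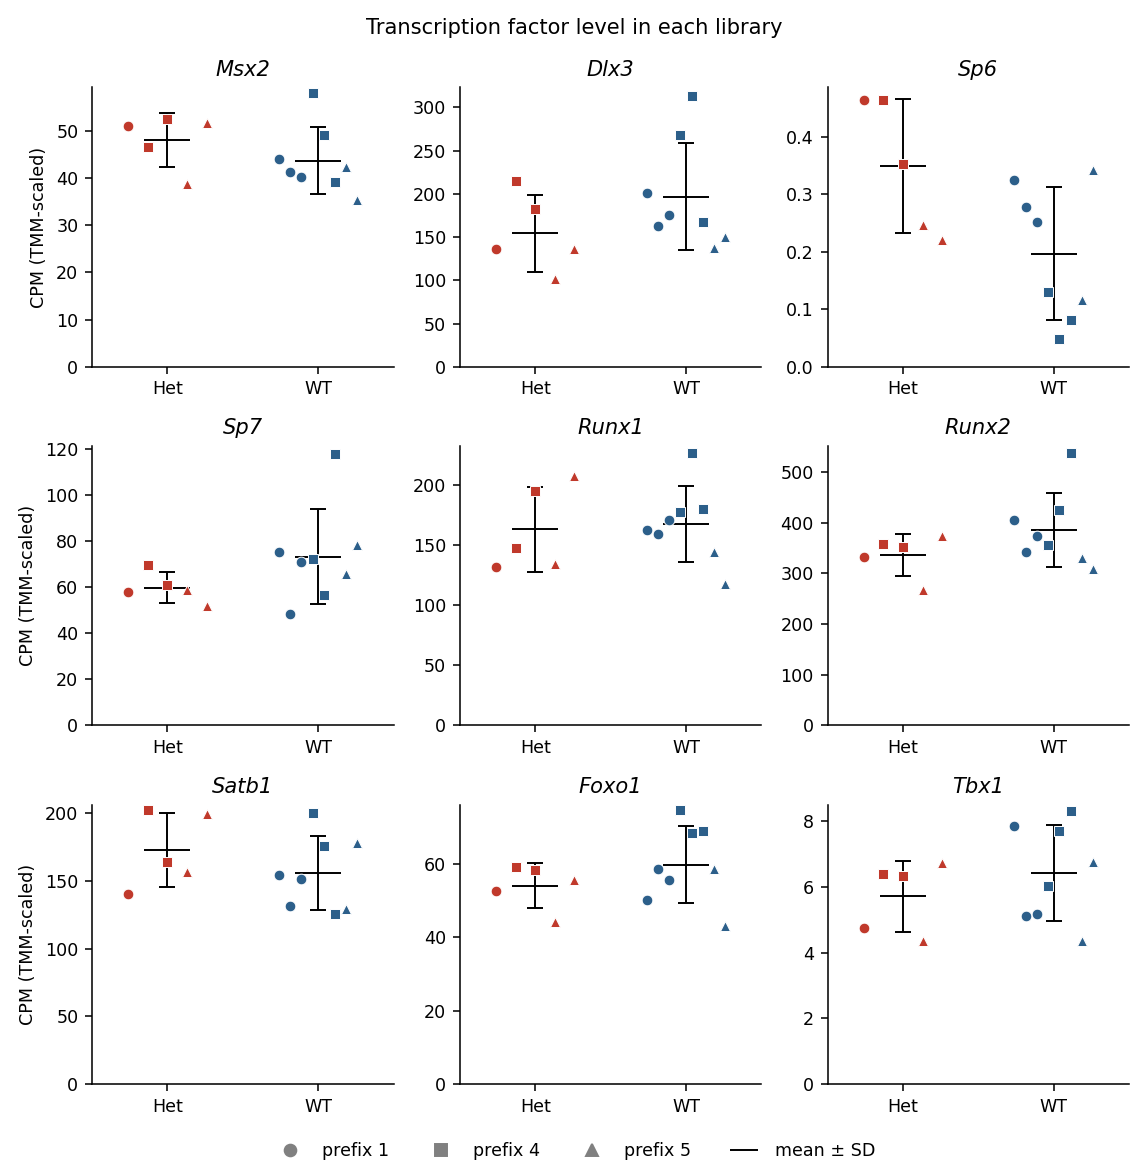
CPM of the 9 factors in every library (1 panel a gene, Het left of WT, marker shape for the prefix, bar and whisker for mean ± SD). Het and WT points overlap for all 8 tested factors. For Dlx3, the prefix 4 libraries, at 168 to 313 CPM, lie above those with prefix 5, at 102 to 150.0 CPM.

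Sp7 and Sp6 encode zinc finger proteins that bind GC-rich sites. Sp7, also called osterix, is needed for osteoblast differentiation and is expressed in ameloblasts too (ENSMUSG00000060284, chr15:102356606-102367182, minus strand). Its level was 57.9, 69.7, 61.0, 58.6 and 51.6 CPM in Het libraries 1-2, 4-2, 4-5, 5-5 and 5-6, against 48.4 to 118 CPM with a median of 71.5 CPM in WT. All Het libraries were below that median, and 5 of 8 WT libraries were above every Het library, but the lowest of all 13 was a WT library. Sp7 in Het over WT was -0.29 ± 0.16 on the log2 scale (SE; 95% interval -0.62 to 0.04; edgeR adjusted p = 0.758). WT 4-4 was the highest for Sp7, at 118 CPM, and without it the value was -0.16 (edgeR adjusted p = 0.880). Without WT 1-3 the value was -0.36 (edgeR adjusted p = 0.587), and without WT 4-3 it was -0.34 (edgeR adjusted p = 0.851). In both of these fits Sp7 had an unadjusted p under 0.05, as did 1243 of 16189 and 936 of 16235 genes.

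The summed osteoblast and bone markers are given above. Of the 10, 0 passed an adjusted p of 0.05 in the edgeR test, where 0.0857% of all genes did. At unadjusted p under 0.05 there was 1 of 10, where 6.9% of all genes were. It was Bglap2 (edgeR log2 fold change -1.50 ± 0.50, SE; adjusted p = 0.509). All 10 had log2 fold changes below 0, with a median of -0.16, where 50.9% of all genes were below 0. This was not particular to bone. The 7 skeletal muscle markers tested were all below 0, as were 7 of 8 odontoblast and dental pulp markers. Of 8 mesenchyme markers 5 were above 0 and 3 below. Across the 13 libraries, Sp7 and the mean log2 CPM of the bone markers had a Pearson r of 0.32 (permutation p = 0.298, adjusted p = 0.439). Their Spearman rho was 0.21 (permutation p = 0.482, adjusted p = 0.691). Without WT 1-4 and Het 4-2, the libraries farthest from the marker median, r was 0.34. How far bone RNA contributes to the Sp7 level was not tested.

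Sp6, also called epiprofin, is required for enamel formation in mice (ENSMUSG00000038560, chr11:97013394-97024734, plus strand). It had 10, 11, 10, 6 and 5 counts in Het libraries 1-2, 4-2, 4-5, 5-5 and 5-6, against 1 to 8 counts in WT. In CPM that is 0.220 to 0.465 in Het and 0.0485 to 0.342 in WT. The 3 highest libraries were Het and the 4 lowest were WT, and the ranges overlapped. In fits that kept genes of low counts, the log2 fold change was 0.82 ± 0.56 with no filter (SE; edgeR adjusted p = 0.643; 0.0858% of genes called, and 7.14% at unadjusted p under 0.05) and 0.82 ± 0.52 over the genes of the authors' filtered table (SE; edgeR adjusted p = 0.791; 0.0707% of genes called). Het minus WT in mean log2 CPM was 0.58, 1.54 and 0.11 within prefixes 1, 4 and 5.

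The annotation limits what the Sp6 count measures. All 1128 coding bases of Sp6 lie inside exons of Gm11532, a gene annotated on the other strand, and so do 3329 of its 3841 exon bases (86.7%). Only 512 exon bases of Sp6 are free of another gene. Per the labels the libraries were unstranded, so reads of the 2 strands cannot be told apart where the exons overlap. Gm11532 had 108, 99, 126, 72 and 100 counts in Het libraries 1-2, 4-2, 4-5, 5-5 and 5-6, against 71 to 162 counts in WT, and the groups overlapped. Of 216 protein-coding genes with at least as large a shared percentage of exon bases, 205 (94.9%) had no library above 11 counts, the highest of Sp6. Of the other 21479 protein-coding genes, 6842 (31.9%) had none. Divided by the 512 unshared bases alone, an alternative added after the data were seen, Sp6 was at 0.499 ± 0.264 CPM per kilobase (SD, n = 13), still below Tbx1. No label or note names the annotation behind the deposited counts, and the part of the overlap in the low count was not tested.

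**Figure D4:**
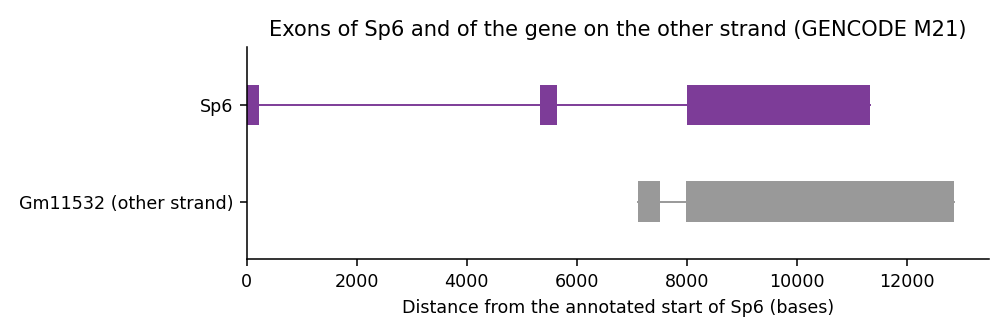
Exons of Sp6 and of Gm11532 against distance from the Sp6 start in bases, with 1 row for each gene. The last Sp6 exon, which holds 3329 bases, lies wholly within an exon of Gm11532.

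Runx1 and Runx2 encode Runt domain proteins that bind DNA with the partner Cbfb. Runx2 drives osteoblast differentiation and Runx1 blood stem cell formation, and both are expressed in dental epithelium. Runx2 (ENSMUSG00000039153, chr17:44495987-44814797, minus strand) was at 332, 357, 351, 267 and 373 CPM in Het libraries 1-2, 4-2, 4-5, 5-5 and 5-6, against 309 to 538 CPM with a median of 365 CPM in WT. The lowest of all 13 was Het 5-5, and 4 WT libraries were above every Het library. Runx2 in Het over WT was -0.20 ± 0.13 on the log2 scale (SE; 95% interval -0.47 to 0.08; edgeR adjusted p = 0.797). Without WT 4-4, the highest library, it was -0.11 (edgeR adjusted p = 0.916), and without Het 5-6 it was -0.24 (edgeR adjusted p = 0.838). Runx2 and the bone marker mean had a Pearson r of 0.24 (permutation p = 0.429, adjusted p = 0.439) and a Spearman rho of 0.18 (permutation p = 0.553, adjusted p = 0.691) over the 13 libraries, and r was 0.30 without WT 1-4 and Het 4-2. The antisense gene Runx2os1 shares 519 exon bases with Runx2 (5.87% of its exon bases) and had 247 to 588 counts, and the strands cannot be told apart there.

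Runx1 (ENSMUSG00000022952, chr16:92601466-92826149, minus strand) was at 132, 147, 194, 134 and 208 CPM in Het libraries 1-2, 4-2, 4-5, 5-5 and 5-6, against 117 to 227 CPM with a median of 166 CPM in WT. The Het libraries were spread over most of the WT range and none lay outside it. The log2 fold change was -0.04 ± 0.15 (SE; 95% interval -0.34 to 0.27; edgeR adjusted p = 0.974), an interval of 0.790-fold to 1.20-fold. Its direction changed without any one of Het 1-2, Het 5-5 and WT 4-3, and Het minus WT in mean log2 CPM was -0.31, -0.19 and 0.35 within prefixes 1, 4 and 5. The 2 Runx levels had a log2 ratio (Runx1 to Runx2 CPM) of -1.06 ± 0.23 in Het and -1.21 ± 0.22 in WT (SD, n = 5 and 8), with ranges that overlapped. Cbfb was at 46.5 to 55.5 CPM in Het and 47.3 to 59.0 CPM in WT (edgeR log2 fold change -0.05 ± 0.09, SE; adjusted p = 0.937). Runx3, the other family member, was at 5.62 to 11.0 CPM in Het and 6.89 to 12.1 CPM in WT.

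Runx1 is also a blood cell gene, so its level was set beside 10 blood and immune cell markers. The markers summed to 99.8 to 199 CPM in Het and 111 to 167 CPM in WT, and the T cell gene Cd3e had at most 3 counts in every library. Runx1 was lower where the markers were higher, with a Spearman rho of -0.74 over 13 libraries (permutation p = 0.00501, adjusted p = 0.0251 over 5 relations) and a Pearson r of -0.68 (permutation p = 0.0101, adjusted p = 0.0506). Without Het 5-5 and Het 5-6, the libraries with the highest and lowest marker level, r was -0.59 (permutation p = 0.0540). Leaving out these extremes also narrows the range and leaves 11 libraries, so how far the relation rests on them cannot be told. With prefix means removed r was -0.61. The prefixes hold 4, 5 and 4 libraries, too few for an r within each.

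**Figure D5:**
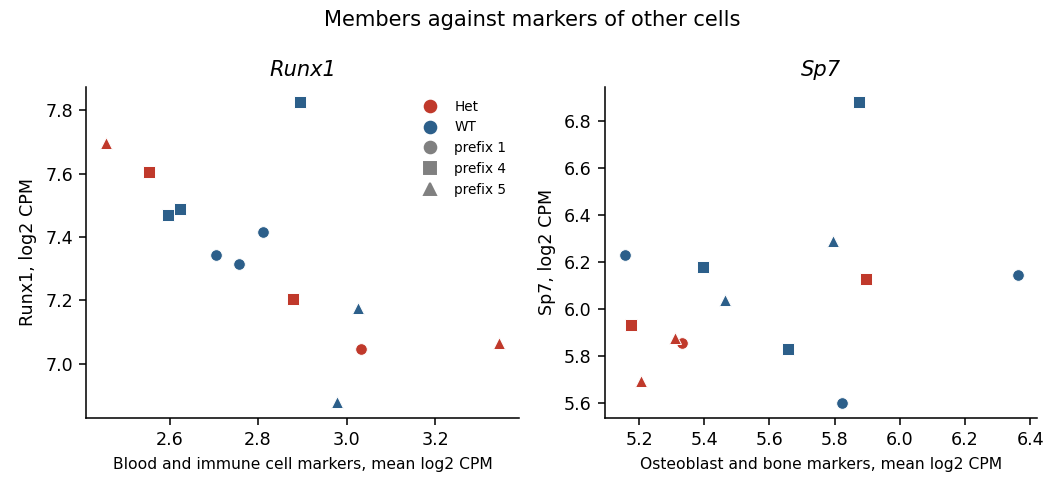
Level of Runx1 (left, log2 CPM) against the mean log2 CPM of the blood and immune cell markers, and of Sp7 (right, log2 CPM) against that of the osteoblast and bone markers, with 1 point a library, colour for Het and WT and shape for the prefix. Most Runx1 points descend from low to high marker level (Spearman rho -0.74), and the Sp7 points scatter (rho 0.21).

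Satb1, Foxo1 and Tbx1 act by other DNA-binding domains. Satb1 (ENSMUSG00000023927, chr17:51736187-51833290, minus strand) encodes a chromatin organiser best known from T cells. It was at 140.4, 202, 164, 157 and 199 CPM in Het libraries 1-2, 4-2, 4-5, 5-5 and 5-6, against 125 to 200.2 CPM with a median of 153 CPM in WT. Only Het 4-2 was above every WT library, and 3 WT libraries were below every Het library. The log2 fold change was 0.15 ± 0.13 (SE; 95% interval -0.12 to 0.42; edgeR adjusted p = 0.846). Leaving out 1 library gave 0.085 (without Het 4-2) to 0.22 (without Het 1-2). Its correlation with the blood and immune markers was weak, with a Pearson r of -0.24 (permutation p = 0.439, adjusted p = 0.439) and a Spearman rho of -0.23 (permutation p = 0.457, adjusted p = 0.691), and r was -0.09 without Het 5-5 and Het 5-6.

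Foxo1 (ENSMUSG00000044167, chr3:52268336-52353221, plus strand) encodes a forkhead factor that insulin and Akt signalling keep out of the nucleus. It was at 52.6, 59.2, 58.3, 44.0 and 55.4 CPM in Het libraries 1-2, 4-2, 4-5, 5-5 and 5-6, against 43.0 to 74.4 CPM with a median of 58.5 CPM in WT. The 3 WT libraries with prefix 4 were above every Het library, and the lowest library was also WT. The log2 fold change was -0.15 ± 0.12 (SE; 95% interval -0.41 to 0.11; edgeR adjusted p = 0.839). Leaving out 1 library gave -0.20 (without WT 5-3) to -0.078 (without Het 5-5). Gm20402, on the other strand, shares 674 exon bases with Foxo1, 307 of them coding, and had 0 counts in all 13 libraries.

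Tbx1 (ENSMUSG00000009097, chr16:18580979-18590671, minus strand) encodes a T-box factor, and incisors that lack it form no enamel in mice. It was at 4.74, 6.41, 6.34, 4.35 and 6.73 CPM in Het libraries 1-2, 4-2, 4-5, 5-5 and 5-6, against 4.36 to 8.31 CPM with a median of 6.39 CPM in WT. The lowest library was Het 5-5, and 4 WT libraries were above every Het library. Tbx1 in Het over WT was -0.16 ± 0.18 on the log2 scale (SE; 95% interval -0.54 to 0.21; edgeR adjusted p = 0.882). Without Het 5-5, the lowest library, it was -0.075, and without WT 5-1 it was -0.23. Tbx1 also acts in muscle precursors of the head, and its correlation with the 8 skeletal muscle markers had a Pearson r of -0.29 (permutation p = 0.348, adjusted p = 0.439) and a Spearman rho of -0.07 (permutation p = 0.834, adjusted p = 0.834), with r at -0.20 without WT 1-4 and Het 4-5.

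The factors varied together to differing degrees across the 13 libraries. Of 28 pairs among the 8 tested, 1 passed an adjusted p of 0.05 by Pearson's r and 0 by Spearman's rho. At unadjusted p under 0.05 there were 8 and 4 (permutation tests). The share among pairs of all genes was not computed, so nothing particular to these factors is read from these counts. The pair that passed was Runx2 and Tbx1, with r = 0.75 (permutation p = 0.00154, adjusted p = 0.0431) and rho = 0.74 (permutation p = 0.00569, adjusted p = 0.0797). Without WT 4-4 and Het 5-5, the extremes of Runx2, r was 0.59 (permutation p = 0.0542). Leaving out extremes also narrows the range and leaves fewer libraries, so how far the call rests on them cannot be told. With prefix means removed r was 0.69 for this pair. Runx1 and Runx2 had r = 0.62 (permutation p = 0.0211, adjusted p = 0.118) and rho = 0.76 (permutation p = 0.00357, adjusted p = 0.0797). For that pair r was 0.53 without WT 4-3 and WT 5-3 and 0.48 with prefix means removed. Dlx3 and Foxo1 (0.69), Runx1 and Foxo1 (0.68) and Runx2 and Foxo1 (0.65) had a higher Pearson r, none past an adjusted p of 0.05. Whether the promoter stretch shared by Runx1 and Runx2 bears on their correlation was not tested. Among the 8 tested factors, the range over the 13 libraries was widest for Dlx3, whose highest library was 3.06 times its lowest, and narrowest for Satb1, at 1.62 times.

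Genes whose log2 CPM followed each factor most closely were ranked by Pearson r over the 13 libraries, as a description with no test. The ranking covered 10112 tested genes whose log2 CPM averaged 2 or more, leaving out unnamed genes and symbols of the Gm and Rik forms. The top gene was Ezr for Msx2 (r = 0.88), Fam193a for Dlx3 (0.97), Mylip for Sp7 (0.90) and Cdc34 for Runx1 (0.88). It was Tmem86a for Runx2 (0.93), Celf2 for Satb1 (0.88), Zbtb7b for Foxo1 (0.88) and Mau2 for Tbx1 (0.94). With so many genes and 13 libraries that share prefixes, values this high occur for every factor. Once prefix means were removed, 2 of the top 3 were kept for Runx1 (Cdc34 and Clip4) and for Runx2 (Tmem86a and Ypel3). For Sp7 (Mylip, still first, 0.94), Dlx3 (Ybx3, 0.95) and Foxo1 (Arhgef10l, 0.88) 1 of the top 3 was kept. None of the top 3 was kept for Msx2, Satb1 or Tbx1.

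Listed partners and downstream genes were examined by count. Of 18 cofactors and upstream regulators, all tested, 14 had log2 fold changes above 0 and 4 below, with a median of 0.03. Of all genes, 50.9% were below 0. None of the 18 passed an adjusted or unadjusted p of 0.05 in the edgeR test, where 0.0857% and 6.9% of all genes did. Smad3, which carries the TGF-beta signal to DNA, was at 42.9 to 68.6 CPM in Het and 35.3 to 59.2 CPM in WT (edgeR log2 fold change 0.20 ± 0.13, SE; adjusted p = 0.788), and Tle2, a Groucho family corepressor, at 13.9 to 26.1 CPM in Het and 20.6 to 31.0 CPM in WT (-0.23 ± 0.14; adjusted p = 0.778). Of 26 other dental epithelial and craniofacial factors, 23 were tested, with 11 above and 12 below 0, a median of -0.07 and 0 past an adjusted p of 0.05. For Isl1 the edgeR estimate on the log2 scale was 0.23 ± 0.13 (SE; adjusted p = 0.761).

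Of 14 listed enamel matrix, protease, ion transport and other genes, Rock1 and Fst among them, 13 were tested. Their log2 fold changes were above 0 for 3 and below 0 for 10, where 50.9% of all genes were below 0. Their median was -0.15 beside 0.00 for all genes. None passed an adjusted p of 0.05 in the edgeR test, where 0.0857% of all genes did. At unadjusted p under 0.05 there were 3 of 13, where 6.9% of all genes were. The list was chosen with earlier results of these data known, so nothing is read from these counts. The 3 genes were Slc26a1, an anion transporter, Amtn, which encodes the matrix protein amelotin of maturation ameloblasts, and Klk4, their main matrix protease. Slc26a1 was at 25.8 to 31.9 CPM in Het and 25.0 to 57.7 CPM in WT (log2 fold change -0.57 ± 0.16, SE; edgeR adjusted p = 0.289). Amtn was at 554.7 to 928 CPM in Het and 722 to 1342 CPM in WT (-0.45 ± 0.15, SE; edgeR adjusted p = 0.502), and Klk4 at 112 to 164 CPM in Het and 134 to 206 CPM in WT (-0.30 ± 0.13, SE; edgeR adjusted p = 0.666). The ranges of each of the 3 genes overlapped. Of the matrix genes typical of secretory ameloblasts, Amelx (0.16 ± 0.17), Enam (0.11 ± 0.18) and Ambn (-0.02 ± 0.21) had log2 fold changes on both sides of 0 (SE; edgeR adjusted p of 0.872, 0.922 and 0.992).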

How the data were processed

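RNA-seq of 13 enamel organ samples was analysed. Per the labels' protocols, total RNA went into unstranded Nextera XT libraries read as 75-base single reads. The submitters' processing notes name STAR 2.5.2a, GRCm38, DESeq2, edgeR and limma. No label or note names the counting tool or the annotation. The authors deposited a table of counts per gene, a filtered table with the same counts, and a table of normalized signal, which served only as an alternative. Spike-in and transgene rows (24, at most 0.000177% of counts) were left out.

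Counts were analysed with edgeR 4.0.16 in R 4.3.3 (TMM, filterByExpr with a minimum count of 10, robust quasi-likelihood fit, Benjamini-Hochberg over 16328 genes, threshold 0.05). CPM used TMM factors (0.920 to 1.09), and log2 CPM a prior count of 2. Alternatives used DESeq2 1.42.0 and limma 3.58.1. Relations used 100000 permutations. The script was tested on simulated data. Columns carry the group but not the labels' replicate number. Libraries of the 78 pairs all differed by more than sampling noise. Named genes in each list were the 2 lowest in p, plus those described as family members or examples, chosen after their values were seen. The factors and gene lists were chosen with earlier results of these data known.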

Additional observations from a re-analysis of the deposited data

Results flagged for a closer look

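Of 28 groups examined for a single library far from its group, 1 was flagged, and chance flags about 1 in 20. The mean log2 CPM of the 10 osteoblast and bone markers was 5.90 in Het 4-2, against 5.33 in the next highest Het library, a gap of 0.784 of the group's whole range. In WT that mean ran from 5.16 to 6.36. In Het 4-2, Sp7 was at 69.7 CPM, the highest of the Het libraries, and Runx2 at 357 CPM, the second highest.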

How the results depend on the processing

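No tested factor passed an adjusted p of 0.05 under any of 28 alternatives, and 7 of the 8 kept their direction in all 28. Runx1 reversed to 0.019 with the mean of Y-linked genes as a term, 0.018 without prefix 1, 0.074 without prefix 4 and 0.040 without Het 1-2 and WT 1-4, and leaving out 1 library at a time gave -0.14 to 0.039. The cause was not tested. Genes past the threshold numbered 14, and 27 with no filter, 25 at 1 CPM or more in 5 libraries, 74 with DESeq2, 27 with limma-voom and sample weights, 30 with prefix as a term, 0, 1 and 2 without prefix 1, 4 and 5 (731, 909 and 1027 at unadjusted p under 0.05), 2 without Het 1-2 and WT 1-4, and 6 (without Het 4-2 or Het 5-6) to 22 (without WT 5-1) leaving out 1 library. Factors past the threshold between prefixes numbered 1, and 0 to 2 leaving out 1 library. No paired analysis was possible because the columns carry no replicate numbers of the labels. The prefix, whose meaning no label gives, was the one grouping that could be used as a block, and the counts with it as a term are those above. The depth of Sp6, at most 11 counts a library, limits what can be said of it.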
